A study of Mus musculus with 5 samples.

Results

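The insulin-like growth factor (IGF) axis was examined in the transcriptomes of differentiated primary myoblasts, in 10 genes taken by name from the 54232 genes of the deposited table: the ligands Igf1 and Igf2, the noncoding RNA H19, the receptors Igf1r and Igf2r, and the binding proteins Igfbp2, Igfbp3, Igfbp4, Igfbp5 and Igfbp7. All 10 were found, each under a single Ensembl identifier, and all 10 reached 5 normalized counts in at least 1 sample, as 18156 genes of the table did. Myoblasts came from the leg muscles of mice aged 6 to 8 weeks on a mixed C57BL6 and 129SV background, were purified on magnetic columns (a satellite cell kit with anti-integrin-7 beads), and were kept for 72 h in differentiation medium before poly-A RNA was sequenced. WT mice gave 3 samples, and mice homozygous for the Elmo2EID knock-in, called EID below, gave 2. The Elmo2EID allele replaces an isoleucine with an aspartate in the inhibitory domain of ELMO2, an adaptor of the RAC activator DOCK1, which opens the protein. It is a germline allele, so that it is not limited to muscle cells. The comparison asks which transcripts differ in myoblasts that carry this open form. The study states that primary cells were typically isolated from independent mice, but the labels do not name the mouse of each sample. The p-values set the group difference against the spread between these samples, which may be partly technical, and n may not count independent mice.

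IGF-I and IGF-II are secreted growth factors that drive proliferation, differentiation and hypertrophy of muscle cells through the tyrosine kinase receptor IGF1R, while IGF2R binds IGF-II and carries it to lysosomes. The IGF-binding proteins hold the ligands outside the cell, prolong their life and limit or aid their access to the receptor. Igf2 is expressed from the paternal chromosome and is an autocrine factor of differentiating myoblasts. H19, next to it, is expressed from the maternal chromosome, shares its enhancers and is the precursor of miR-675.

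The table holds read counts divided by a size factor for each sample, here called normalized counts. Samples held 35021856 to 49381544 reads, at which 3 reads equal 2.65 to 3.73 normalized counts, and every member was far above that floor in every sample. The altered gene, Elmo2, had 1539 to 1660 normalized counts in WT and 1441 and 1327 in EID, and since the knock-in changes a codon its level is no check of the genotype. The 16 myoblast and myotube markers summed to between 1974283 and 2331370 normalized counts in WT and to 2011411 and 2406711 in EID samples, and none of the 16 was at 0. A log2FC is the mean log2(normalized count + 1) in EID minus that in WT, given ± its standard error (SE). Unless another tool is named, adjusted p-values are those of limma over all genes with the Benjamini-Hochberg correction, called under 0.05. In these bulk samples, fewer cells of a type and less RNA per cell cannot be told apart.

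The called differences in the axis were in binding protein transcripts. Igfbp5 fell to 0.566 of its WT level, and it was the 1 member of 10 that passed the limma test over all genes, against 2.23% of the 18156 genes tested. Igfbp2, Igfbp3 and Igfbp4 also had both EID samples below all WT samples, with ratios of means of 0.501, 0.572 and 0.69, but did not pass the limma test. DESeq2, the tool of the study's methods, run on whole reads recovered from the table, called these 4 of 10 members, all lower, against 5.56% of the 17287 genes to which it gave an adjusted p. edgeR's quasi-likelihood test called none of the 10, with Igfbp5 at an adjusted p of 0.0502, and 4 of the 10 had an unadjusted p under 0.05 in the limma fit, against 15.2% of the genes tested. Both EID samples lay below all WT samples in 5 of the 10 members (Igfbp2, Igfbp3, Igfbp4, Igfbp5 and H19), against 15.9% of the genes tested. Both lay above in 1, Igfbp7, against 16.7% of the genes tested. The median log2FC of the 10 members was -0.19 and that of all genes tested was 0.01.

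**Figure D1:**
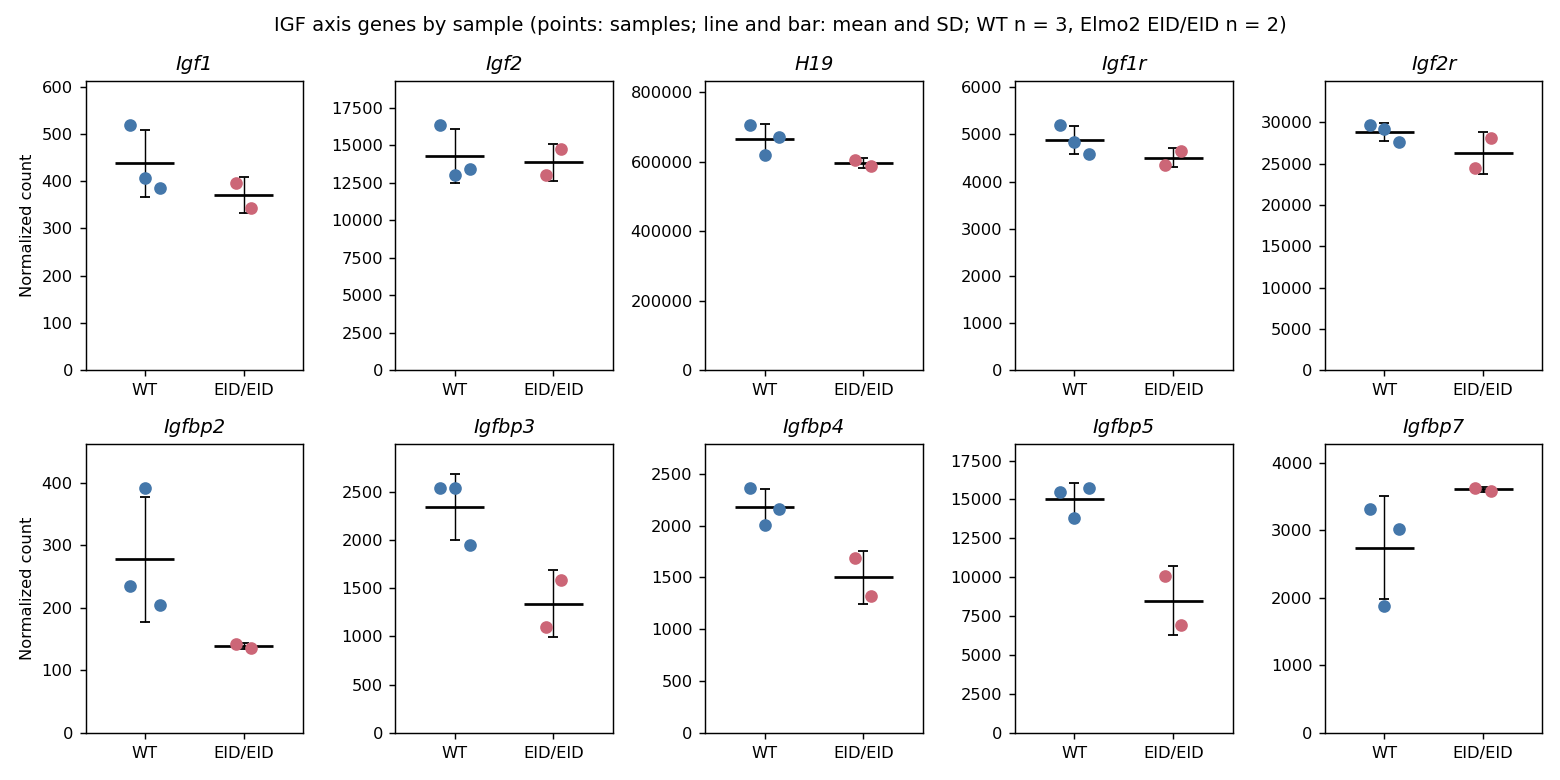
Normalized count (vertical axes, from 0, a scale for each gene) of the 10 IGF axis genes in each sample, with points for samples, horizontal lines for group means and bars for the SD (WT, n = 3; EID, n = 2). The EID points lie below all WT points for Igfbp2, Igfbp3, Igfbp4, Igfbp5 and H19, above them for Igfbp7, and overlap their range for Igf1, Igf2, Igf1r and Igf2r, where 1 EID point lies below all WT points and the other does not.

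The promoters of the 4 binding protein genes that were lower are shown because DESeq2 called these members in the same direction, and that of Igfbp5 because limma called it too. Each is the 250 bases before the RefSeq transcription start on GRCm38.p6, written 5′ to 3′ in the direction of transcription, with capitals for GGGCGG (the GC box bound by Sp1-type factors) and TATAAA (the TATA box) on either strand. The first of the pair of Igfbp2 starts in RefSeq is shown.
Igfbp5 (chr1:72874866-72875115, minus strand): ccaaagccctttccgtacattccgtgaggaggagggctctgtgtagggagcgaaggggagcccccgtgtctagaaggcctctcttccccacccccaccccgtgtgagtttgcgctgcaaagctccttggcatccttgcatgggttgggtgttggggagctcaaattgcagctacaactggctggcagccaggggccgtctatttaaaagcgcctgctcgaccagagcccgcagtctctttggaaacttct
Igfbp3 (chr11:7213924-7214173, minus strand): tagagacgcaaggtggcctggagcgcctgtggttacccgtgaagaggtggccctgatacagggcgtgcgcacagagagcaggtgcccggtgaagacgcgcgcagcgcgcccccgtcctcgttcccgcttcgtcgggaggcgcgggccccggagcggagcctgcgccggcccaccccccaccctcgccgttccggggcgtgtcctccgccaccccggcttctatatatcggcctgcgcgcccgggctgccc
Igfbp4 (chr11:99040994-99041243, plus strand): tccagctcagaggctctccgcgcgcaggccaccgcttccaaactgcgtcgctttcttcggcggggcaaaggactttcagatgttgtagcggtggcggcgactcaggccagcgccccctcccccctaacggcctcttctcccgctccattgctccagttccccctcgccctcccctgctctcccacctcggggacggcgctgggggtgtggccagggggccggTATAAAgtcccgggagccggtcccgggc
Igfbp2 (chr1:72824230-72824479, plus strand): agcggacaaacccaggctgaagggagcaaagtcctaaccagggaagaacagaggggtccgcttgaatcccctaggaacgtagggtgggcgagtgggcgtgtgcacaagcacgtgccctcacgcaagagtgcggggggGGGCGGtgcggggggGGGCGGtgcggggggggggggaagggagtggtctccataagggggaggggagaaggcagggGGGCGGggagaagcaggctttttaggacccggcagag
The letters GGGCGG occurred 3 times in the Igfbp2 window, and TATAAA occurred 1 time in the Igfbp4 window, 28 bases before the start. Windows of this length held GGGCGG in 32.7% and TATAAA in 12.4% of the 32851 RefSeq promoters. CAGCTG, an E-box sequence of the MyoD family, was in none of these 4 windows, in 1 window of Igf1, and in 13.0% of all promoters. GTAAACA, a forkhead sequence, was in none of the 13 windows of the members, and in 3.17% of all promoters. A match of letters is not measured binding. H19 was not matched in the promoter table.

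Igfbp5 (ENSMUSG00000026185, protein coding, minus strand of chromosome 1, 72857932 to 72874884 on GRCm38) encodes the main binding protein induced when myoblasts differentiate, which binds both IGFs and the extracellular matrix. It had 15480, 13814 and 15744 normalized counts in WT samples 1, 2 and 3, and 10061 and 6939 in EID samples 1 and 2. The EID samples were apart from each other by more than the WT samples were, and both were below the lowest WT sample. The means were 15013 ± 1047 (SD, n = 3) and 8500 ± 2208 (SD, n = 2), a log2FC of -0.84 ± 0.15 (SE, 95% interval -1.21 to -0.48) with an adjusted p of 0.0467 from limma. DESeq2 gave an adjusted p of 2.3e-05. The limma call ended when WT sample 1 (adjusted p = 0.16), WT sample 2 (0.0903), WT sample 3 (0.0938) or EID sample 2 (0.168) was left out, while the log2FC stayed between -1.11 and -0.57. Without EID sample 1 it was -1.11, with an adjusted p of 0.0385.

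Igfbp2 (ENSMUSG00000039323, plus strand of chromosome 1, 72824503 to 72852474) lies tail to tail with Igfbp5, with 5457 bases between them. Its protein binds both IGFs, IGF-II with preference. It had 235.0, 391.5 and 205.1 normalized counts across WT and 142.2 and 135.4 in EID. WT sample 2 stood highest, and the groups did not overlap. Its log2FC was -0.94 ± 0.27 (SE, 95% interval -1.58 to -0.29), the lowest of the 10 members, with an adjusted p of 0.165 by limma and 0.0233 by DESeq2. Without WT sample 2 it was -0.66.

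Igfbp3 (ENSMUSG00000020427, minus strand of chromosome 11, 7206086 to 7213923) encodes the chief carrier of IGFs in serum. It had 2541, 2540 and 1950 normalized counts in WT and 1095 and 1585 in EID myoblasts. The samples within each genotype spread about equally, with an SD of 341 in WT and 347 in EID, and the groups did not overlap. This gave a log2FC of -0.82 ± 0.18 (SE, 95% interval -1.25 to -0.39), with an adjusted p of 0.0828 by limma and 9.3e-04 by DESeq2. The gene that neighbours it, Igfbp1, was under the filter on low values.

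Igfbp4 (ENSMUSG00000017493, plus strand of chromosome 11, 99041244 to 99054392) encodes a binding protein that restrains IGF action until it is cut by the protease PAPP-A. It had 2364, 2007 and 2159 normalized counts in WT and 1683 and 1322 in EID myoblasts. Each EID sample was below each WT sample, and the difference was the smallest of the 4. This gave a log2FC of -0.54 ± 0.12 (SE, 95% interval -0.83 to -0.25), with an adjusted p of 0.0828 by limma and 0.00446 by DESeq2.

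Igfbp7 (ENSMUSG00000036256, minus strand of chromosome 5, 77349240 to 77408041), whose secreted protein binds IGFs weakly and is found in vessel walls, lay on the other side. It had 3319, 1874 and 3019 normalized counts in WT and 3627 and 3579 in EID myoblasts. The EID samples were close to each other and above every WT sample, while WT sample 2 was far below the other WT samples. Its log2FC was 0.44 ± 0.23 (SE, 95% interval -0.10 to 0.98), with an adjusted p of 0.425 by limma and 0.436 by DESeq2, so no difference was called. Without WT sample 2 it was 0.19.

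**Figure D2:**
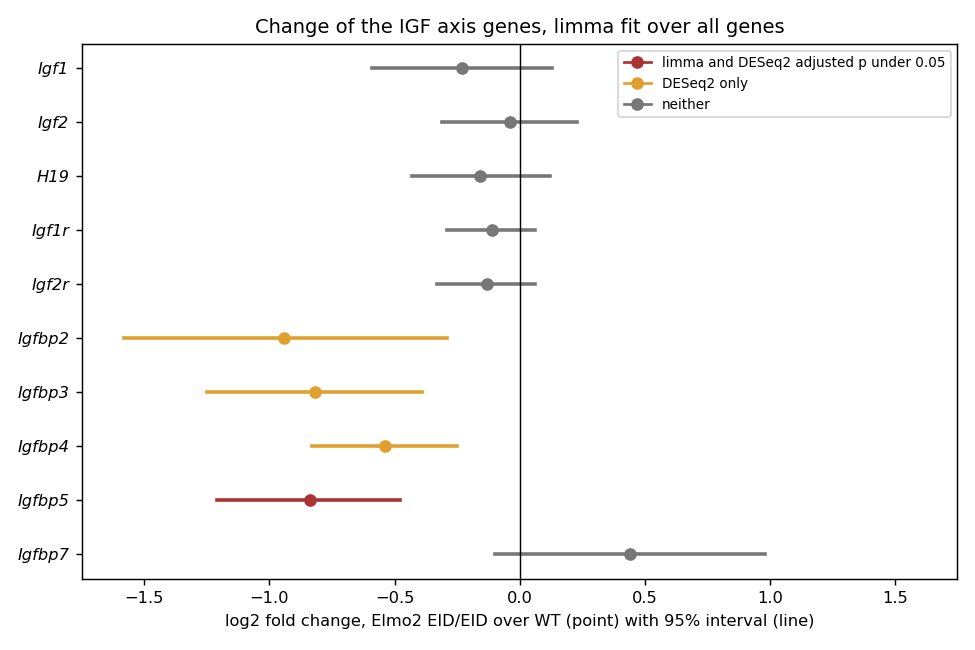
Log2FC of each IGF axis gene, EID over WT (horizontal axis, points), with its 95% interval from the limma fit (lines) and colour for the tests that called it. The intervals of Igfbp2, Igfbp3, Igfbp4 and Igfbp5 lie below 0, and those of the ligands, H19, the receptors and Igfbp7 span 0.

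Igf2 (ENSMUSG00000048583, minus strand of chromosome 7, 142650766 to 142666816), the main IGF ligand of these cultures, had 16335, 13021 and 13418 normalized counts in WT and 12979 and 14744 in EID myoblasts. The samples of the genotypes were interleaved. Its log2FC was -0.04 ± 0.11 (SE, adjusted p = 0.915 by limma), and its 95% interval, -0.31 to 0.23, bounds the difference that these samples could hide. Its sign changed when WT sample 1 (0.07) or EID sample 1 (0.06) was left out.

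Igf1 (ENSMUSG00000020053, plus strand of chromosome 10, 87858265 to 87937042), the ligand that acts after birth under growth hormone and also locally in muscle, was the least abundant member per length. It had 518.6, 407.2 and 386.6 normalized counts in WT and 397.1 and 343.4 in EID myoblasts. WT sample 1 was highest and the groups overlapped. Its log2FC was -0.23 ± 0.15 (SE, 95% interval -0.59 to 0.13, adjusted p = 0.541 by limma).

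H19 (ENSMUSG00000000031, a lincRNA on the minus strand of chromosome 7, 142575529 to 142578143, with 72.6 kb between it and Igf2) took between 1.32% and 1.63% of all reads of a sample. By normalized count it was the most abundant gene of the whole table in WT sample 1 and ranked 2 in each of the other 4 samples. It had 705123, 619474 and 671032 normalized counts in WT and 606133 and 586353 in EID myoblasts. The EID samples were just under the lowest WT sample. The log2FC was -0.16 ± 0.12 (SE, 95% interval -0.43 to 0.12, adjusted p = 0.594 by limma and 0.424 by DESeq2), so no difference was called. The ratio of H19 to Igf2 in normalized counts was 43.2, 47.6 and 50.0 in WT and 46.7 and 39.8 in EID samples, and these ranges overlapped.

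The mature miRNAs annotated inside these genes are printed because H19 is the host of miR-675 and Igf2 of miR-483, with the seed (bases 2 to 8) in capitals, from RefSeq on GRCm38.p6.
mmu-miR-675-5p (chr7:142577112-142577133, minus strand): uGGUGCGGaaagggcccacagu
mmu-miR-675-3p (chr7:142577078-142577099, minus strand): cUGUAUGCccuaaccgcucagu
mmu-miR-483-5p (chr7:142654968-142654989, minus strand): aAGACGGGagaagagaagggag
mmu-miR-483-3p (chr7:142654932-142654952, minus strand): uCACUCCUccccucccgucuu
The 4 seeds differed from each other. The libraries were made from poly-A RNA and do not measure mature miRNAs. The row of the miR-675 hairpin was listed at 0 reads in all 5 samples, although the hairpin lies within H19, and how reads that overlap both were assigned is not given in the sources used here. The row of the miR-483 hairpin had 1.77 to 2.49 normalized counts in WT and 5.37 and 6.28 in EID samples, too few for a comparison. The antisense transcript Igf2os, on the opposite strand across Igf2, had 158.2 to 186.4 normalized counts in WT and 174.4 and 180.2 in EID samples.

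The receptors showed small differences. Igf1r (ENSMUSG00000005533, plus strand of chromosome 7, 67952827 to 68233668), the signalling receptor, had 5198, 4849 and 4596 normalized counts in WT and 4363 and 4645 in EID myoblasts. Igf2r (ENSMUSG00000023830, minus strand of chromosome 17, 12682406 to 12769664), the clearance receptor for IGF-II and for mannose 6-phosphate enzymes, had 29653, 29163 and 27576 in WT and 24491 and 28126 in EID myoblasts. The groups overlapped for both receptors. Their log2FC values were -0.11 ± 0.07 (SE, 95% interval -0.29 to 0.06, adjusted p = 0.53 by limma) and -0.13 ± 0.08 (SE, 95% interval -0.33 to 0.06, adjusted p = 0.504 by limma). A p that misses the threshold does not show that the levels are equal, and the intervals allow decreases of up to 0.29 and 0.33 on the log2 scale.

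Levels were compared between genes per kilobase (kb) of exonic sequence, the union of all annotated exons, which understates genes with many alternative exons. On this scale H19 stood apart at 238355 to 286635 normalized counts per kb. Igf2r, Igfbp7, Igf2 and Igfbp5 followed, and their order differed between the genotypes. In WT the means were 3094 normalized counts per kb for Igf2r, 2500 for Igfbp5, 2491 for Igf2 and 2264 for Igfbp7. In EID they were 2980 for Igfbp7, 2826 for Igf2r, 2422 for Igf2 and 1415 for Igfbp5. Over all 5 samples, the ranges of these 4 genes overlapped except that Igf2r, at 2631 or more, lay above Igfbp5, at 2621 or less. Igfbp3 and Igfbp4, at means over all 5 samples of 620.5 and 431.9 per kb, also overlapped, since Igfbp3 ranged from 349.7 to 811.8 and Igfbp4 from 299.4 to 535.4. Igf1r at 281.7, Igfbp2 at 120.1 and Igf1 at 41.45 per kb closed the order. Igf1r overlapped Igfbp4, and the last 3 did not overlap each other. Igf2 was 54.5 to 60.1 times as abundant as Igf1 per kb in WT, and 56.6 and 74.3 times in EID samples. The ratio of Igf2r to Igf1r per kb was 10.1 to 10.9 in all 5 samples.

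The make-up of the transcripts of the 5 binding protein genes of the axis is given on the same scale, with no test. Igfbp6, which is not among the 5, had a mean of 562.3 normalized counts per kb and is not in these sums. Igfbp5 made up 37.9%, 43.2% and 41.3% of the sum of the 5 binding protein genes per kb in WT, and 30.6% and 23.1% in EID samples. Igfbp7 made up 40.4%, 29.1% and 39.4% in WT, and 54.7% and 59.3% in EID samples. Both shares separated the groups, and these shares are not independent, since they are parts of the same sum. The sum itself was 6797, 5328 and 6342 normalized counts per kb in WT and 5483 and 4995 in EID samples, so that the groups overlapped.

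**Figure D3:**
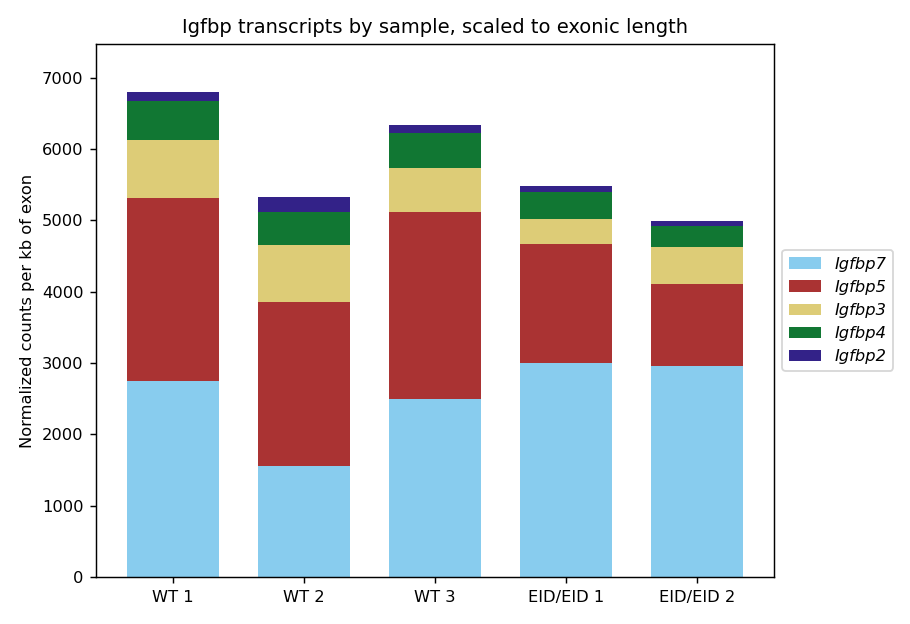
Normalized counts per kb of exon (vertical axis, from 0) of the 5 binding protein genes, stacked, in each of the 5 samples. Igfbp7 makes up the larger part of the bar in both EID samples, at 54.7% and 59.3%, where Igfbp5 is reduced.

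The patterns of the members over the 5 samples were compared by the root mean square difference of their log2 levels after each gene was centred on its own mean, among the 11222 genes whose mean reached 100 normalized counts. As a description over 5 samples that share their libraries, the genes most like Igf2 were Kdelr2 (0.0244), S100a10 (0.0271) and Cndp2 (0.0275), and those most like H19 were Rcbtb1 (0.0152), Ralb (0.0154) and Efnb1 (0.0197). H19 ranked 1249 of 11222 genes in likeness to Igf2, at a difference of 0.116. The neighbours of Igfbp5 were looked up after the values were seen. Timp1, a gene of the list described next, was nearest at 0.0792, and Igfbp4 ranked 51 at 0.167.

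Of the proteases that cut binding proteins and their inhibitors, all 11 genes were tested, and 2 fell while none rose, against 2.23% of all genes called by limma. Timp1, an inhibitor of metalloproteinases, had 4309, 4202 and 4301 normalized counts in WT and 2814 and 2178 in EID, which gave a log2FC of -0.79 ± 0.11 (SE, adjusted p = 0.02 by limma). Mmp14, a membrane-anchored metalloproteinase, had 2989, 2461 and 2331 in WT and 1739 and 1629 in EID, which gave a log2FC of -0.62 ± 0.11 (SE, adjusted p = 0.0486 by limma). Neither gene overlapped between the groups, and Timp2, the most abundant gene of the list, had a log2FC of -0.05. DESeq2 called 3 of the 11, Mmp2 in addition, against 5.56% of all genes. Both EID samples lay below all WT samples in 4 of the 11, against 15.9% of the genes tested. They lay above in 1, Pappa2, against 16.7% of the genes tested. Pappa2, named after its values were seen, had 308.3 to 453.2 normalized counts in WT and 532.1 and 528.9 in EID samples. Its log2FC was 0.55, the highest of the list, and limma, DESeq2 and edgeR did not call it. Pappa, the protease of Igfbp4, named after its values were seen, had 85.25 to 139.2 normalized counts in WT and 98.38 and 71.72 in EID samples, with no call. The list had a median log2FC of -0.16.

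Among other genes of the family, 7 of 13 passed the filter, and Ins1, Ins2, Insrr, Igfbp1, Igfals and Igfbpl1 did not. Esm1, an endothelial proteoglycan with an IGF-binding protein domain, rose from 144.9, 42.62 and 116.8 normalized counts in WT to 555.4 and 803.2 in EID, which gave a log2FC of 2.88 ± 0.49 (SE, adjusted p = 0.0397 by limma). It was the 1 gene of the 7 that was called, against 2.23% of all genes, with a ratio of means of 6.7. In 4 of the 7 both EID samples lay above all WT samples and in 1 below, against 16.7% and 15.9% of all genes, and 4 had an unadjusted p under 0.05 (against 15.2% of all genes). Igfbp6, a binding protein that prefers IGF-II, named after its values were seen, had 833.2, 775.1 and 491.0 normalized counts in WT and 444.5 and 582.7 in EID (log2FC -0.42, not called), and the groups overlapped. Insr, the insulin receptor, had 5714 to 6592 normalized counts in WT and 7036 and 7010 in EID samples (log2FC 0.19, not called), and the protease Htra1 had a log2FC of 0.35 (not called). The median of the 7 log2FC values was 0.19.

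The sum of the endothelial markers, Esm1 and Igfbp7 each had both EID samples above all WT samples. Their order within a genotype was not the same. EID sample 1 was above EID sample 2 for Igfbp7, and below it for Esm1 and the sum. The 12 endothelial markers, none at 0, summed to 1191, 346.6 and 1277 normalized counts in WT and to 3146 and 4634 in EID samples. WT sample 2 was lowest for the sum, for Esm1 and for Igfbp7. It was the lowest WT sample for 12 of the 12 endothelial markers and 6 of the 8 Schwann cell markers. It was also lowest for 5 of the 8 pericyte and smooth muscle markers tested and 6 of the 9 fibroblast markers tested. Of these 6, Dpt was tied at 0 with WT sample 3. Named after their values were seen, the Schwann cell marker Sox10 had 18.55, 2.243 and 96.96 normalized counts in WT and 89.43 and 43.03 in EID, and the fibro-adipogenic marker Pdgfra had 758.1, 120.0 and 504.7 in WT and 275.5 and 542.4 in EID. In 11 of the 12 both EID samples were above all WT samples, against 16.7% of the genes tested. Limma called none of the 12, with 10 at an unadjusted p under 0.05 (against 15.2% of all genes), while edgeR called 2 (against 2.25% of all genes) and DESeq2 called 6 (against 5.56% of all genes) as higher, Tie1, Flt1, Erg, Vwf, Esam and Robo4. Pecam1, a defining marker named after its values were seen, had 157.3, 24.68 and 160.4 normalized counts in WT and 410.5 and 649.9 in EID samples. The part of endothelial and other non-muscle cells in the values of Igfbp7 and Esm1 was not tested.

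**Figure D4:**
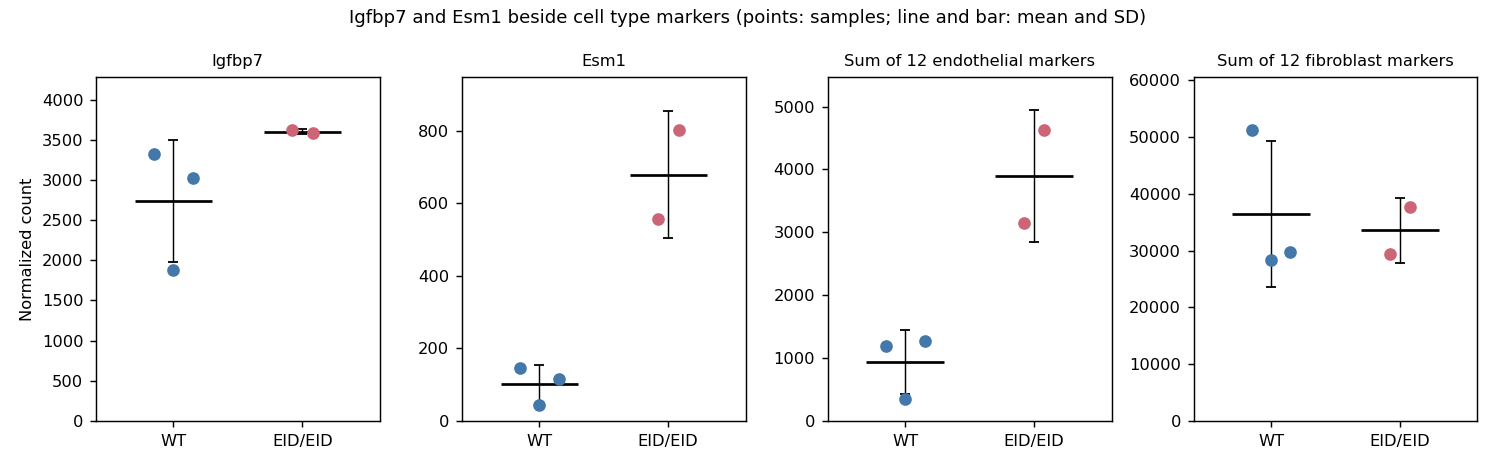
Normalized count (vertical axes, from 0) by sample of Igfbp7, Esm1, and the sums of 12 endothelial and 12 fibroblast markers, with points for samples, lines for means and bars for the SD (WT, n = 3; EID, n = 2). Igfbp7, Esm1 and the endothelial sum all have WT sample 2 at the bottom and both EID samples at the top. The fibroblast sums, made up mostly of collagen transcripts, overlap.

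Other cell types were read in the same way beside the lower binding proteins. The 12 fibroblast and fibro-adipogenic markers, of which Lum, Pi16 and Tcf21 were at or under 3 reads in every sample, summed to 28258 to 51299 normalized counts in WT and to 29463 and 37606 in EID samples, and these ranges overlapped. The collagen genes Col1a1, Col1a2 and Col3a1 made up most of these sums, so the overlap says little of the other markers. Limma and edgeR called none of the 9 tested, with 3 at an unadjusted p under 0.05 (against 15.2% of all genes), and DESeq2 called 1 (against 5.56% of all genes), Col3a1, a collagen gene, as lower. Col3a1 had 9036, 7705 and 6694 normalized counts in WT and 5345 and 3226 in EID (log2FC -0.90, adjusted p = 0.102 by limma and 0.0017 by DESeq2), and it was the 1 of the 9 with both EID samples below all WT samples, against 15.9% of all genes. In this list 7 of the 9 log2FC values were above 0, with a median of 0.33. Dcn (log2FC 1.80) and Cd34 (1.42), named after their values were seen, had both EID samples above all WT samples without a call by limma, DESeq2 or edgeR. These are 2 of the 9, against 16.7% of all genes. Dcn was close to the floor of 3 reads, at 1.767, 2.243 and 4.972 normalized counts in WT and 8.049 and 17.93 in EID samples. Of the pericyte and smooth muscle markers, 2 of the 8 tested fell, against 2.23% of all genes called by limma: Rgs5, from 65.06 to 125.5 normalized counts in WT to 9.838 and 11.65 (log2FC -2.97, adjusted p = 0.00759 by limma), and Notch3, from 2768 to 2887 to 1319 and 702.8 (log2FC -1.55, adjusted p = 0.028 by limma). In 3 others, Cspg4 (log2FC 0.39), Myh11 (1.42) and Mcam (0.61), both EID samples were above all WT samples (against 16.7% of all genes). These 3 were named after their values were seen, and limma, DESeq2 and edgeR called none of them. The sums of all 9 overlapped, at 44907 to 59965 in WT and 49598 and 49123 in EID samples, but Acta2 made up most of them, and Kcnj8 was at or under 3 reads throughout. Pax7, the factor of undifferentiated satellite cells, was the 1 of 16 myoblast and myotube markers that was called, with 922.4, 942.2 and 836.6 normalized counts in WT and 414.1 and 297.6 in EID samples (log2FC -1.35, adjusted p = 0.00764 by limma). The share called among all genes was 2.23%. Both EID samples lay below all WT samples in 4 of these 16 markers and above in 4, against 15.9% and 16.7% of all genes. The 10 cycling cell markers summed to 3054 to 4366 normalized counts in WT and 2902 and 3105 in EID samples, with none called by limma, DESeq2 or edgeR and 4 at an unadjusted p under 0.05 (against 15.2% of all genes). None of the 10 had a log2FC above 0, their median was -0.37, and in 5 of them both EID samples were below all WT samples, against 15.9% of the genes tested. The 8 Schwann cell, 6 macrophage and 6 adipocyte markers had no call by limma, DESeq2 or edgeR, with 1, 1 and 0 at an unadjusted p under 0.05 (against 15.2% of all genes). Of the Schwann cell markers, 7 of 8 had a log2FC above 0, with a median of 1.31. The part of these cell types in the levels of Igfbp2, Igfbp3, Igfbp4 and Igfbp5 was not tested.

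Downstream of the receptors, all 46 genes from the receptor adaptors to mTOR and the MAP kinases were tested, and 2 fell while none rose by limma, against 2.23% of all genes, so that the count is near the background. DESeq2 called 3 of the 46, against 5.56% of all genes. Ptpn1, a phosphatase that switches off the insulin and IGF receptors, fell from 2755, 2663 and 2380 normalized counts in WT to 1378 and 1425 in EID, which gave a log2FC of -0.89 ± 0.08 (SE, adjusted p = 0.00438 by limma). It lies on chromosome 2, 167932057 to 167979385, as does Elmo2 (165288031 to 165326479). Whether the fall of Ptpn1 is tied to its position on the chromosome of the altered gene was not tested. Deptor, an inhibitor of mTOR, fell from 44353, 46292 and 44667 to 33215 and 30795, a log2FC of -0.50 ± 0.07 (SE, adjusted p = 0.0208 by limma). Neither gene overlapped between the groups. Grb10, an imprinted adaptor that restrains both receptors, was the most abundant of the list and had 41279, 42195 and 43883 normalized counts in WT and 53132 and 51157 in EID, which gave a log2FC of 0.30 that DESeq2 called (adjusted p = 7.8e-04) and limma did not. The median of the 46 log2FC values was -0.01.

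Limma called none of the 22 FoxO factors and FoxO target genes, although 10 of them had an unadjusted p under 0.05, against 15.2% of all genes tested. edgeR also called none. DESeq2 called 4 of the 22, against 5.56% of all genes, with Ctsl, a lysosomal protease, as higher, and the stress genes Sesn2, Sesn3 and Ddit4 as lower. The atrophy ligases Fbxo32 and Trim63, looked up after their values were seen, had log2FC values of 0.19 and 0.14. Ctsl had 8832, 10240 and 10152 normalized counts in WT and 18281 and 12419 in EID, which gave a log2FC of 0.63. Insr, counted here too as a FoxO target, and Cited2 had log2FC values of 0.19 and 0.04. Of the 11 RNA-binding proteins and transcriptional regulators of Igf2 and H19, limma, DESeq2 and edgeR called none, and 1 had an unadjusted p under 0.05, against 15.2% of all genes. Zfp568, a repressor of an Igf2 promoter, Elavl1 and Ctcf, which binds the control region between Igf2 and H19, had log2FC values of 0.16, -0.05 and 0.08. The medians of the FoxO and regulator lists were 0.01 and 0.02.

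**Figure D5:**
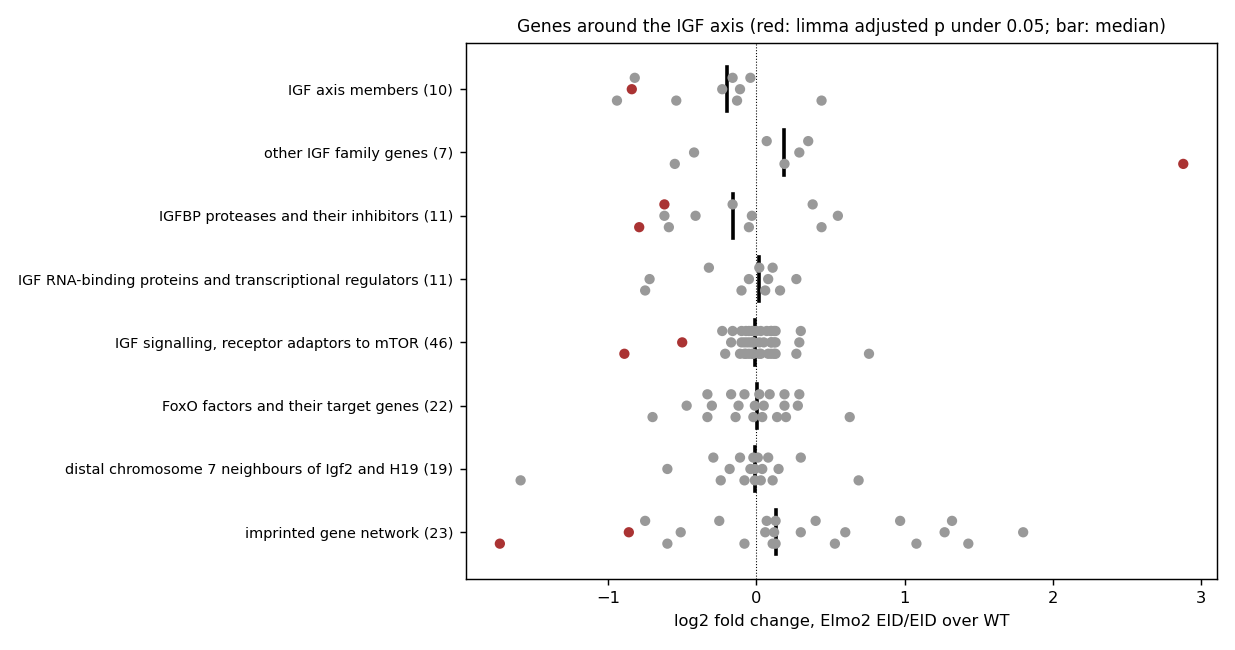
Log2FC, EID over WT (horizontal axis), of each tested gene of the IGF axis and of the lists around it, with the number tested in parentheses, black bars for medians and red for genes called by limma. The 46 signalling genes lie between -0.89 and 0.76, and Esm1 lies far to the right at 2.88.

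The genes that flank Igf2 and H19 on distal chromosome 7 were read to see whether the locus differed as a whole. Of 23 genes, 19 passed the filter, with none called by limma or edgeR, 2 at an unadjusted p under 0.05 (against 15.2% of all genes) and a median log2FC of -0.01. DESeq2 called 1 of the 19, against 5.56% of all genes, so that both counts were no higher than the background. It was Cdkn1c, named after its values were seen, an imprinted inhibitor of the cell cycle, which had 10936, 12188 and 7586 normalized counts in WT and 6609 and 6602 in EID samples. The fast troponin genes Tnnt3 and Tnni2 and the protease gene Ctsd, the most abundant of the list, had log2FC values of -0.11, -0.24 and 0.03. Among 23 tested genes of the imprinted network, 2 fell, against 2.23% of all genes called by limma. These were Mest (log2FC -1.73, adjusted p = 0.00516 by limma) and Peg10 (log2FC -0.86, adjusted p = 0.0248 by limma), while Gnas, the most abundant of those not called, had -0.08. DESeq2 called 8 of the 23, against 5.56% of all genes, of which Rtl1, Grb10, Peg3, Usp29 and Zim1 were higher (log2FC 1.43, 0.30, 0.40, 0.53 and 0.60) and Mest, Peg10 and Cdkn1c were lower, and limma did not call the 5 that were higher. edgeR called 3 of the 23, against 2.25% of all genes, Mest and Peg10 as lower and Usp29 as higher (adjusted p = 0.047 by edgeR). The median log2FC of that list was 0.13. The 7 genes that limma called in the lists from the proteases to the imprinted network depended on the samples included. Of them, 0 were called without EID sample 2, 1 without EID sample 1 (Timp1), 3 without WT sample 1 (Ptpn1, Mest and Peg10) and 3 without WT sample 2 (Esm1, Ptpn1 and Mest). Without WT sample 3, 7 genes were called, Cdkn1c among them and Esm1 not.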

How the data were processed

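Primary myoblasts differentiated for 72 h were sequenced in 5 samples, grouped as WT (n = 3) and EID (n = 2, homozygous Elmo2EID) from the sample titles. Untrimmed read pairs were aligned by the authors to GRCm38 (STAR 2.5.1b), and unique, reverse-stranded hits per gene were tallied with featureCounts 1.4.6. The deposited values are a signal, each tally divided by its sample's size factor (DESeq2 1.34.0). Division by the smallest positive value of a sample gave whole reads (within 0.01) for 100.0% of positive values. Samples held 35021856 to 49381544 reads, which set the counting error. Samples of a group differed beyond sampling noise (chi-square over its degrees of freedom, 26.6 to 37.8).

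The main test was limma 3.58.1 (R 4.3.3, trended eBayes, two-sided, no block) on log2(normalized count + 1), a scale that understates changes of low genes. The 18156 genes that reached 5 normalized counts in 1 or more samples entered, and p-values were adjusted by Benjamini-Hochberg. DESeq2 1.42.0 and edgeR 4.0.16 were run on the recovered reads, DESeq2 on all genes above 0. Other alternatives were pseudocounts of 0.5 and 5, a stricter filter and none, quantile normalization, equal totals, no trend, a block by replicate number, and each sample left out in turn. Fits were tested on simulated data. GENCODE M21 named 54165 of 54232 identifiers and gave positions and exon lengths. The members and lists were chosen with earlier results of these data known. Named in the text were the 10 members, the called genes of each list (up to 6, filled to 3 with the most abundant), the 3 genes most like Igf2 and H19, Elmo2, called markers, genes called by DESeq2, Igf2os and the hosted miRNAs, and genes said to be chosen after their values were seen. Also named were genes under the filter or near the floor, and genes that made up most of a marker sum. RefSeq gave promoters for 9 of the 10 members.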

Additional observations from a re-analysis of the deposited data

How the results depend on the processing

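With 2 EID samples, calls depended on the settings more than fold changes did. Of 150 values of the members' log2 fold changes under the alternatives, 137 kept their direction and side of the threshold, 8 lost a call (all Igfbp5), 3 gained one and 2 reversed. The reversals were Igf2, at 0.07 without WT replicate 1 and 0.06 without EID replicate 1, within a range of -0.13 to 0.07 when a sample was left out. The number of members called, 1 in the limma test, was 4 with DESeq2, 0 with the stricter filter, with no filter, with edgeR and without the trend, and 0 to 1 when a sample was left out. The adjusted p of Igfbp5 was 0.0508 with the stricter filter (10 normalized counts in 2 samples), 0.147 with no filter and 0.19 without the trend. Over all genes, 404 calls became 155 with no filter, 408 with edgeR and 961 with DESeq2 on the recovered reads, 144 without the trend and 54 to 349 when a sample was left out (150 without WT replicate 1, 209 without WT replicate 2, 112 without EID replicate 1 and 54 without EID replicate 2). A lone EID sample was assumed to vary as the WT samples do. Over the pathway lists, 7 calls became 2 with no filter, 18 with DESeq2, 0 without the trend and 0 to 7 when a sample was left out. With a pseudocount of 0.5, with the stricter filter and with equal totals, 6 genes of these lists were called, and Mmp14 was not among them. Leaving out a sample removes data by construction, and the cause of the other shifts was not tested. Under a replicate block, a term for the replicate number, 224 genes and 1 member were called. That fit drops WT replicate 3, which has no partner, and same-numbered samples had a correlation of deviations of -0.19 over 15080 genes. With 2 EID samples this cannot decide whether same-numbered samples share more than a number.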
